A study of Bos taurus with 14 samples.

Results

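The genes described here are the nuclear genes for subunits of respiratory complex III, complex IV and ATP synthase. They were chosen by symbol: those beginning with UQCR or ATP5, those with COX, a digit from 4 to 8 and a letter, and CYC1. The rule found 43 of the 17469 genes in the deposited table, 9 of complex III, 15 of complex IV and 19 of ATP synthase. The libraries came from the livers of 14 Holstein bull calves, 7 control calves (CON) and 7 calves given a daily 1 g of killed Lactobacillus ingluviei CR37 (DCLI). Titles that call a library treated were read as DCLI, the only treated group that the study design names. All calves were fed milk replacer at 1.75% of body weight, had starter from day 33, had their milk replacer cut to 50% on day 82, were weaned by day 89 and were slaughtered on day 90. Liver transcripts were read from 1 poly(A)-selected library per calf, to see whether feeding the killed bacteria was accompanied by differences in expression.

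Complex III takes electrons from ubiquinol and hands them to cytochrome c, complex IV passes them from cytochrome c to oxygen, and both pump protons across the inner mitochondrial membrane. ATP synthase lets the protons flow back and uses that flow to make ATP. Each enzyme is built from a few subunits encoded in mitochondrial DNA, cytochrome b and the catalytic subunits of complex IV among them, and from many encoded in the nucleus. In liver, this machinery pays for gluconeogenesis and urea synthesis. The table holds TPM (transcript abundance scaled for transcript length and to 1 common library total), and 0 rows of it named a mitochondrially encoded gene, so only the nuclear side of the complexes is described. TPM has the same total in every library, so sequencing depth is unknown and no counting interval can be given. In a piece of liver, fewer cells of a type and less RNA per cell cannot be told apart.

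As a check of the tissue, the 8 hepatocyte markers summed to between 63285 and 119079 TPM in CON and between 43025 and 131561 TPM in DCLI. Of 5 striated muscle markers 3 were in the table, and they summed to between 0.060 and 0.43 TPM over all calves. T and NK cell markers summed to between 28.1 and 286 TPM in CON, highest in control calf 2, and to between 22.1 and 80.8 TPM in DCLI. All 6 of them stood lower in DCLI, as did 7 of 8 macrophage markers, with sums of 1882 to 8199.6 TPM in CON (highest again in control calf 2) and 1651 to 4956 TPM in DCLI, and 7 of 8 stellate and smooth muscle markers, with sums of 147 to 238 and 131 to 251 TPM. Of the hepatocyte markers 5 of 8 stood higher, and of the endothelial markers 3 of 5. Of 3 cholangiocyte and 3 erythroid markers tested, 1 of each list stood higher. Over all genes tested, 48.8% stood higher. The part of these cells in the differences below was not tested. Over all genes, control calf 2 and DCLI calf 6 were the libraries least like the others (median r of 0.948 and 0.963 with the other 13, against 0.968 to 0.977 for the rest).

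The subunit genes were among the well expressed genes of the liver. Summed over all members they made up 1.302 ± 0.069% of all TPM in CON and 1.35 ± 0.13% in DCLI (mean ± SD, n = 7 each). Here and below, levels, shares and ratios carry the SD over calves, and log2 fold changes carry their SE. The lowest, median and highest share was 1.21, 1.29 and 1.42% in CON and 1.07, 1.38 and 1.44% in DCLI. DCLI calf 1 had the lowest share of all 14 calves and the groups overlapped. ATP synthase members summed to 7374 ± 347 TPM in CON and 7557 ± 713 TPM in DCLI. Complex IV members summed to 4070.4 (SD 284) and 4133 TPM (SD 419), and complex III members to 1572 (SD 103) and 1792 TPM (SD 225). The complex IV sum leaves out COX6C and NDUFA4, subunits that the symbol rule does not reach and that are given below.

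Within a complex, levels per transcript length were far from even. The small membrane subunit of ATP synthase ATP5ME was the most abundant member at 1199 TPM in CON. Its ratio to ATP5F1B, the catalytic beta subunit, averaged 3.71 (SD 1.22) in CON and 2.38 (SD 0.38) in DCLI. In complex IV, COX7C, a small membrane subunit, led with 885 TPM in CON, and COX7A2L, which helps complexes III and IV join into supercomplexes, had 59.6 TPM. In complex III the small subunits UQCR10 and UQCR11 had 427 and 355 TPM in CON, while the electron-carrying cytochrome c1 (CYC1), the Rieske iron-sulfur protein (UQCRFS1) and the core proteins UQCRC1 and UQCRC2 had between 69.7 and 109 TPM. ATP5S, an old symbol for a coupling factor that is no structural subunit, had only 8.11 TPM. Of the 43 members, 38 had a mean of at least 50 TPM among the genes tested.

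**Figure D1:**
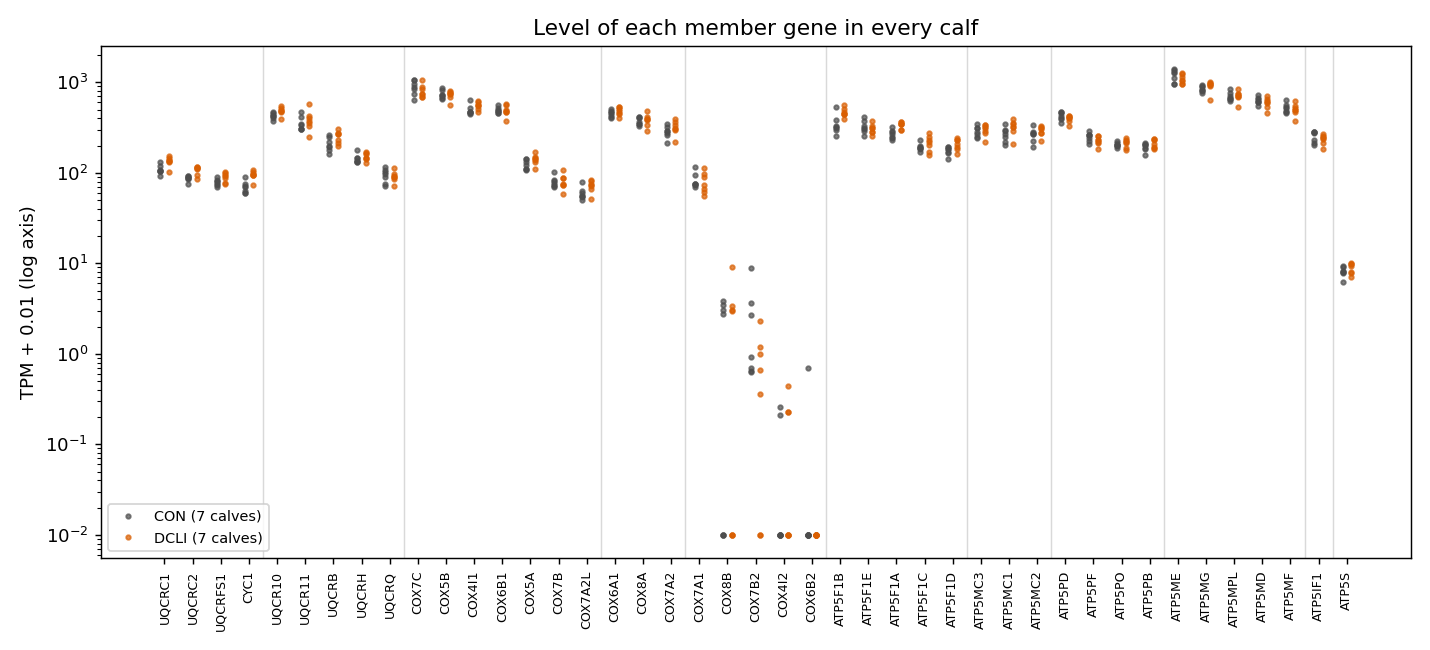
TPM + 0.01 of each of the 43 members on a log axis, 1 point per calf, grouped by role (grey lines part the roles). Small subunits such as ATP5ME and COX7C lie highest, and 4 tissue-restricted complex IV isoforms lie near the bottom, with points at the lowest level standing for values listed at 0.

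Complex IV is assembled from tissue-specific isoforms, and the calf livers used the liver-type ones. COX4I1 had 496 TPM in CON, while COX4I2, the lung-type isoform, reached no more than 0.43 TPM in any calf. COX6B2, the testis-type isoform, was listed at 0 in all calves but control calf 1 (0.69 TPM), and COX7B2, also testis-type, had 2.59 ± 3.03 TPM in CON and 0.78 ± 0.80 TPM in DCLI. COX8A had 374 TPM in CON and the heart-type COX8B 1.86 TPM (SD 1.77), listed at 0 in 3 control calves. COX7A1, the heart- and muscle-type form of subunit VIIa, was the exception. It had 82.8 ± 17.1 TPM in CON and 79.5 ± 21.1 TPM in DCLI, against 285 and 318 TPM of the liver-type COX7A2. The level of COX7A2 was on average 3.48 times that of COX7A1 in CON (SD 0.43) and 4.23 times in DCLI (SD 1.36). The medians were nearly the same, 3.47 and 3.48, and DCLI calves 5, 6 and 7 had the highest ratios (5.49, 6.57 and 4.58). COX4I2, COX6B2 and COX7B2 did not reach 1 TPM in 7 libraries and were not tested, which left 40 members.

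The ring of c subunits through which protons pass is encoded by ATP5MC1, ATP5MC2 and ATP5MC3, known in mammals to give the same mature protein from different precursors. The 3 genes were expressed at nearly equal levels. In CON they supplied 32.4% (SD 3.88), 32.6% (SD 5.44) and 35.0% (SD 3.26) of their summed TPM, and in DCLI 34.8% (SD 4.12), 32.5% (SD 5.07) and 32.8% (SD 1.83). Their sum was 819.8 ± 82.7 TPM in CON and 910.2 ± 99.7 TPM in DCLI. The 3 differences in share were smaller than the SD within CON.

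Between the groups, no member passed the threshold of limma, a linear model fitted to log2(TPM + 1) across all 11905 genes tested with Benjamini-Hochberg adjustment. Neither did any other gene (0 of 11905, 0%), while 1058 genes (8.89%) had an unadjusted limma p under 0.05 and 1020 (8.57%) had an exact permutation p under 0.05. Of the 1058 genes, 678 (5.7% of those tested) stood higher and 380 (3.19%) lower in DCLI (810 of 1522 were higher with median-ratio scaling). Among the 40 members, 7 had an unadjusted p under 0.05 and all 7 stood higher in DCLI: CYC1, UQCRC1, UQCRC2 and UQCRB of complex III, ATP5F1A and ATP5F1B of ATP synthase, and COX7A2L. That is 17.5% of the members. By the exact permutation test the count was 8, with 5 of these 7 among them. COX7A2L and UQCRB lay close to the threshold (unadjusted limma p 0.0481 and 0.0499). UQCRB missed it with median-ratio scaling (unadjusted limma p 0.101) and quantile normalization (0.136). With 1 calf left out, the limma count ran from 5 to 12 members, and it was 12 without DCLI calf 1. By direction alone, 28 of 40 members stood higher (70.0%, against 48.8% of all genes tested) and the median log2 fold change was 0.10, against -0.01 over all genes tested and 0.03 over the 1775 genes with a mean of at least 50 TPM. Of those 1775 genes, a closer match since 38 members are as abundant, 55.5% stood higher and 11.7% had an unadjusted p under 0.05. No member had every DCLI calf above every control calf, a pattern found in 0.0588% of the genes tested (0.0084% had the reverse). These counts depend on how calves are weighed: with limma's library weights, 1388 genes and 8 members passed the adjusted threshold, and without control calf 7 it was passed by 12 genes and 0 members.

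**Figure D2:**
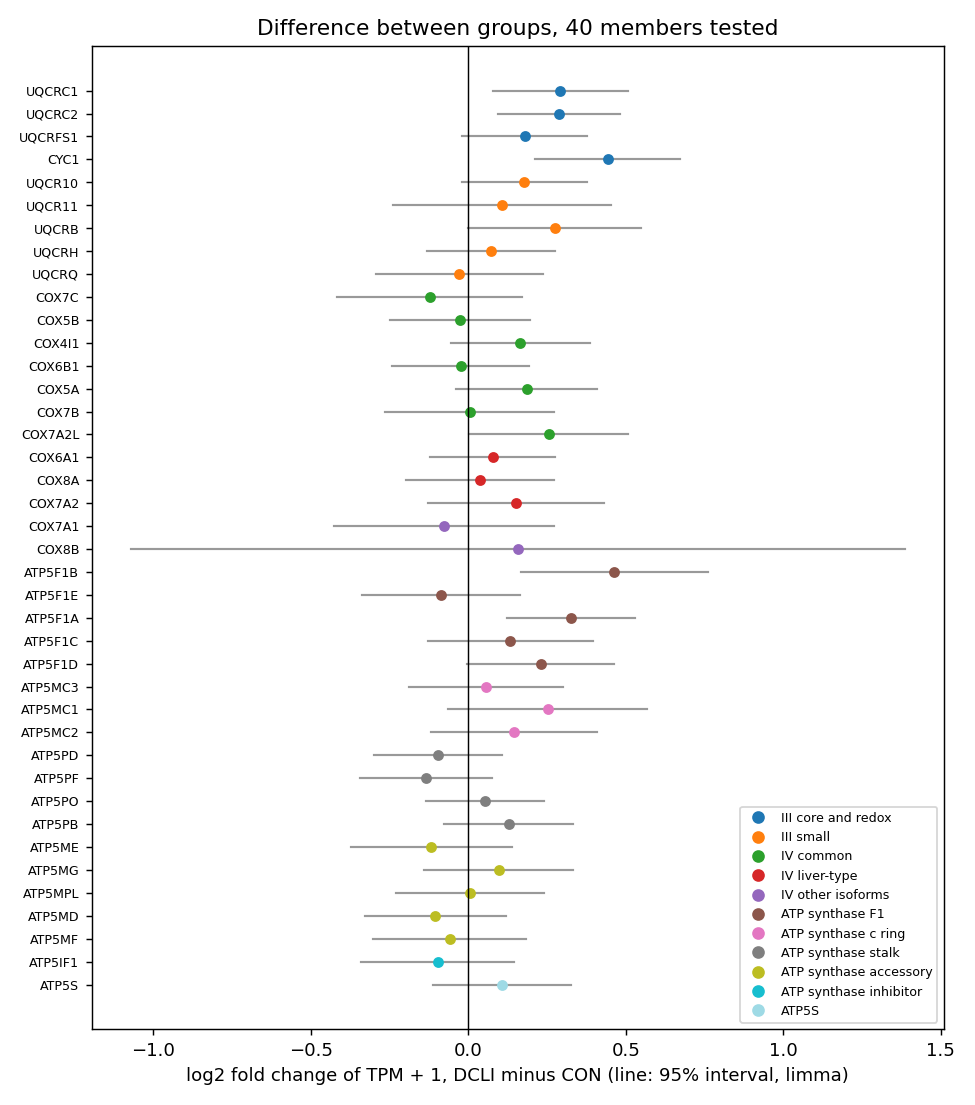
Log2 fold change (DCLI minus CON, log2 of TPM + 1) of the 40 members tested, coloured by role, with 95% intervals from limma. The 4 core and redox subunits of complex III lie to the right of 0, between 0.18 and 0.44, and the 5 membrane accessory subunits of ATP synthase lie around 0, between -0.12 and 0.10.

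Of the core and redox subunits of complex III, all 4 stood higher in DCLI (median log2 fold change 0.29), and 3 had an unadjusted limma p under 0.05. CYC1, which carries the electron from the Rieske protein to cytochrome c, had a lowest, median and highest level of 59.3, 70.3 and 88.8 TPM in CON and 73.4, 95.7 and 108 TPM in DCLI. Of the DCLI calves 6 lay above the highest control, and only DCLI calf 1 lay within the control range. Its log2 fold change was 0.44 ± 0.11 (SE, n = 7 each), with a limma adjusted p of 0.365 and an exact permutation p of 0.00175 before adjustment.

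UQCRC1, a core protein facing the matrix, ran over 93.0, 105 and 132 TPM in CON and 103, 136 and 153 TPM in DCLI. Control calf 7 was the highest control and DCLI calf 1 the lowest of its group, and 5 DCLI calves lay above all controls. The log2 fold change was 0.29 ± 0.10 (limma adjusted p 0.439, exact permutation p 0.0117). UQCRC2, the other core protein, had 75.1, 86.9 and 92.4 TPM in CON and 84.9, 112 and 116 TPM in DCLI, with 6 DCLI calves above the highest control. Its log2 fold change was 0.29 ± 0.09 (limma adjusted p 0.420, exact permutation p 0.00699). UQCRFS1, the iron-sulfur subunit, stood 0.18 ± 0.09 higher, with 70.1, 78.7 and 89.7 TPM in CON and 74.9, 91.4 and 103 TPM in DCLI (limma adjusted p 0.592, exact permutation p 0.0490). Here 4 DCLI calves lay above the highest control and the other 3 within the control range.

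Small subunits of complex III were more mixed. UQCRB, which binds near the ubiquinone site, had 160.3, 196 and 261 TPM in CON and 197, 269 and 308 TPM in DCLI. All 7 DCLI calves lay above the control median and 4 above the highest control. Its log2 fold change was 0.27 ± 0.13, with a limma adjusted p of 0.562 and an exact permutation p of 0.0536. UQCR10, the most abundant subunit gene of the complex, had 376, 422 and 473 TPM in CON and 389.9, 481 and 550.3 TPM in DCLI, a log2 fold change of 0.18 ± 0.09 (limma adjusted p 0.592, exact permutation p 0.0309). UQCR11, UQCRH and UQCRQ had log2 fold changes of 0.11, 0.07 and -0.03. Core and redox genes supplied 22.0% of the summed complex III TPM in CON (SD 1.98) and 23.8% in DCLI (SD 1.42), and the groups overlapped.

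**Figure D3:**
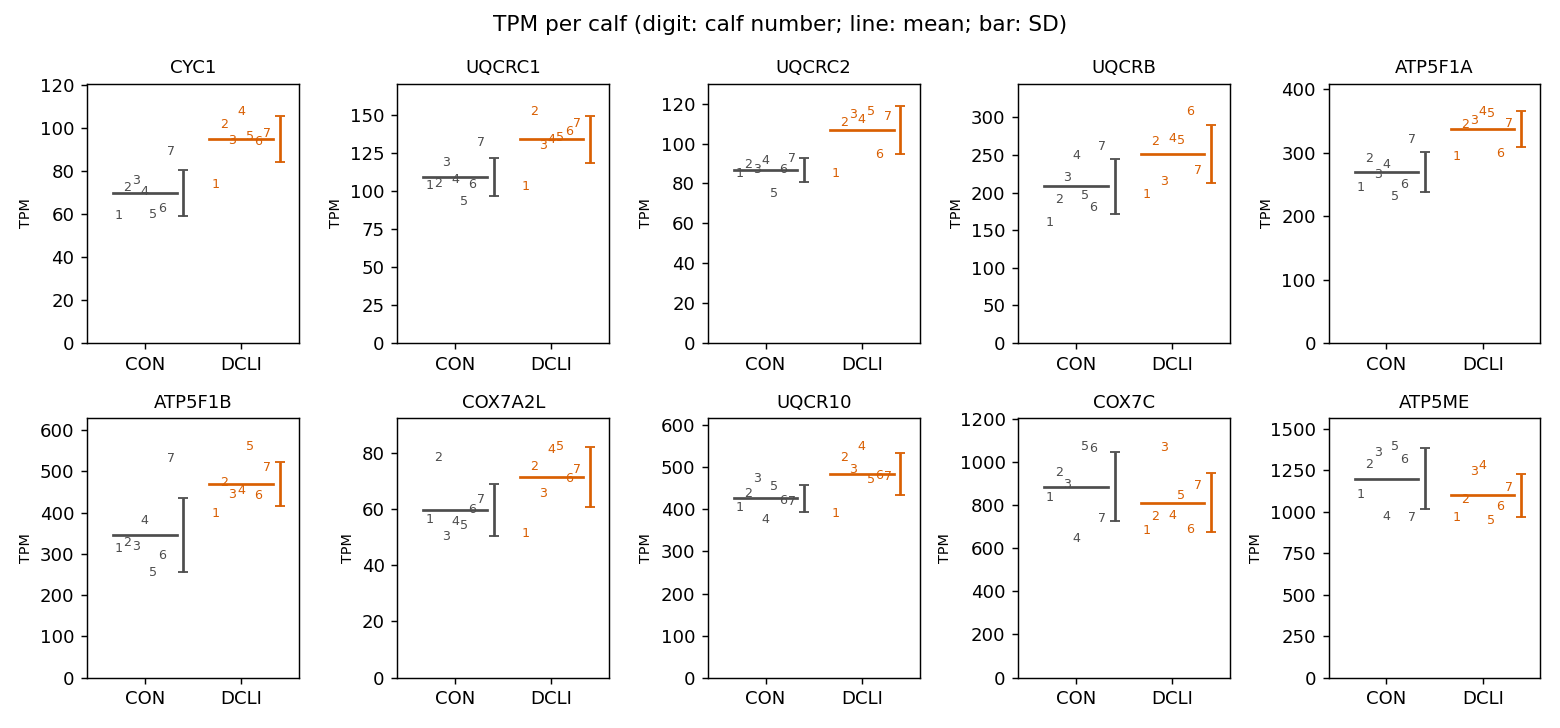
TPM of the 7 members with an unadjusted limma p under 0.05 and of UQCR10, COX7C and ATP5ME, the most abundant of each complex. Digits are calf numbers, lines are group means and bars are 1 SD. DCLI calf 1 lies below the other DCLI calves for CYC1 (73.4 TPM), UQCRC1 and UQCRC2, and control calf 7 lies above the other controls for CYC1 (88.8 TPM) and ATP5F1B (529.8 TPM).

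In ATP synthase, 4 of the 5 genes of the catalytic head and central stalk stood higher in DCLI (median log2 fold change 0.23). ATP5F1B, whose product carries the catalytic sites, had a lowest, median and highest level of 255, 319 and 529.8 TPM in CON and 397, 452 and 561 TPM in DCLI. Control calf 7, at 529.8 TPM, lay within the DCLI range, and the other 6 controls lay below every DCLI calf. The log2 fold change was 0.46 ± 0.14 (SE), with a limma adjusted p of 0.409 and an exact permutation p of 0.00874. It was 0.57 without control calf 7 and 0.40 without control calf 5. ATP5F1A, the alpha subunit that alternates with beta in the head, had 231, 266 and 321 TPM in CON and 294, 346 and 365 TPM in DCLI. Again 6 controls lay below every DCLI calf, and the log2 fold change was 0.33 ± 0.10 (limma adjusted p 0.409, exact permutation p 0.00291). Of the central stalk, ATP5F1D (delta) stood 0.23 ± 0.11 higher (limma p 0.0524 before and 0.567 after adjustment, exact permutation p 0.0437 before adjustment). ATP5F1C (gamma) stood 0.13 ± 0.12 higher and ATP5F1E (epsilon) had a log2 fold change of -0.09 ± 0.12.

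The remaining parts of ATP synthase lay around 0. The 4 peripheral stalk genes, which hold the head still, ran from -0.14 (ATP5PF) to 0.13 (ATP5PB), with 2 higher and 2 lower. The 5 membrane accessory subunits, some of which link ATP synthase into dimers, ran from -0.12 (ATP5ME) to 0.10 (ATP5MG), with 2 higher and 3 lower. ATP5ME had 964, 1283 and 1396 TPM in CON and 950.2, 1073 and 1281 TPM in DCLI. Every DCLI calf lay below the control median, yet control calves 4 and 7 were as low as the lowest DCLI calves, and the log2 fold change of -0.12 ± 0.12 was no larger than its SE (limma adjusted p 0.789, exact permutation p 0.286). The c ring genes stood 0.25 (ATP5MC1), 0.15 (ATP5MC2) and 0.06 (ATP5MC3) higher, none with an unadjusted p under 0.05. ATP5IF1, the inhibitor that stops the enzyme from running backwards, had 205, 275 and 285 TPM in CON and 182, 242 and 268 TPM in DCLI (log2 fold change -0.10 ± 0.11). Set against ATP5F1B in the same calf, ATP5IF1 had a ratio of 0.77 ± 0.23 in CON and 0.50 ± 0.058 in DCLI. Control calf 7 had the lowest ratio of all calves, 0.398, and the other 6 controls, from 0.597 up, lay above every DCLI calf (0.432 to 0.569). This ratio follows from the ATP5F1B levels above and was given no test. It was picked after its values were seen, and how often other ratios part the calves so was not counted. The ratios of ATP5ME and ATP5F1E to ATP5F1B overlapped more. There control calf 4, at 2.54 and 0.821, lay within the DCLI ranges (1.69 to 2.83 and 0.500 to 0.831).

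Complex IV as a whole was nearly level between the groups. Of 12 members tested 8 stood higher and 4 lower (median 0.06 on the log2 scale), and COX7A2L alone had an unadjusted limma p under 0.05. Its levels were 50.3, 56.1 and 78.2 TPM in CON and 51.2, 74.1 and 82.3 TPM in DCLI, a log2 fold change of 0.25 ± 0.12 (limma adjusted p 0.558, exact permutation p 0.0536). Control calf 2 was the highest control, DCLI calf 1 the lowest DCLI calf, and the groups overlapped. COX4I1 and COX5A, early-assembling nuclear subunits, stood 0.17 ± 0.10 and 0.19 ± 0.11 higher. COX7C had 644, 893 and 1073 TPM in CON and 683, 751 and 1068 TPM in DCLI, a log2 fold change of -0.12 ± 0.14 (limma adjusted p 0.810, exact permutation p 0.380). COX5B, COX6B1 and COX7B lay between -0.03 and 0.00, and the liver-type COX6A1, COX7A2 and COX8A between 0.04 and 0.15. The complex IV subunit COX6C, listed in the table under the symbol MGC148714 and so outside the rule, had 417 ± 29.4 TPM in CON and 414 ± 58.2 TPM in DCLI. NDUFA4, a subunit of complex IV despite its name, had 456 TPM (SD 50.0) and 439.9 TPM (SD 33.6).

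For 37 of the 40 members the 95% interval of the log2 fold change lay within a 1.5-fold difference in either direction, and it reached a median of 0.23 to either side of the estimate. The exceptions were CYC1, ATP5F1B and the barely expressed COX8B. Within groups the members varied less than most genes, with a median residual SD of 0.18 on the log2 scale against 0.24 over all genes tested.

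In 1 calf most of the set was low at once. DCLI calf 1 had the lowest level of its group for 34 of the 40 members, whereas it was lowest for 39.0% of all genes tested. The median member lay 0.24 below its mean over all calves there, and between 0.04 below and 0.21 above it in the other 6 DCLI calves. The hepatocyte markers of DCLI calf 1 lay 0.22 above their mean, and haptoglobin, an acute phase protein, had 10022 TPM there, within the range of both groups. Its T and NK cell, macrophage, cholangiocyte and erythroid markers had median deviations of -0.92, -0.84, -1.06 and -0.92, each the lowest of all 14 calves. Stellate and endothelial markers had 0.20 and 0.02. The 20 most abundant genes made up 30.9% of its TPM, within the range of both groups. In CON the lowest member values were spread over all 7 calves, with at most 10 of 40 in one calf (control calf 4). What sets DCLI calf 1 apart was not tested.

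**Figure D4:**
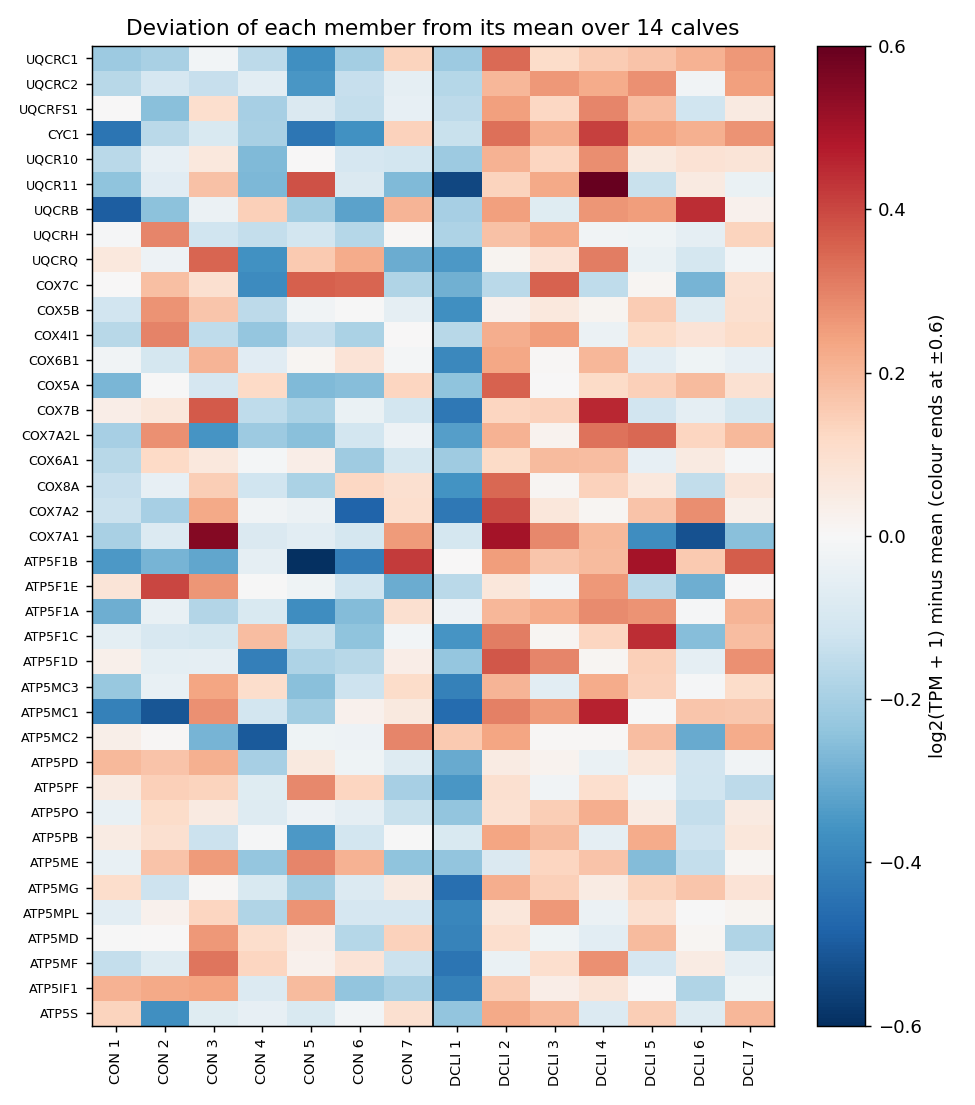
Deviation of log2(TPM + 1) of each member from its mean over the 14 calves, members in rows by role and calves in columns (COX8B, often listed at 0, is left out). The column of DCLI calf 1 is blue in nearly every row (lowest of its group in 34 of 40 members), while the rows of CYC1, ATP5F1A and ATP5F1B are mostly blue in CON and red in DCLI.

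Across calves, with each group's mean taken away, members tended to vary together. The median correlation was 0.40 over the 780 pairs of members, against 0.13 over all pairs of the 1775 genes with a mean of at least 50 TPM, as a description of these 14 libraries, which all genes share. The median was 0.39 within complex III, 0.36 within complex IV, 0.37 within ATP synthase and 0.39 to 0.44 between them. By role, core and redox genes of complex III had a median of 0.61 among themselves and 0.70 with ATP5F1A and ATP5F1B, and the membrane accessory genes of ATP synthase had 0.51 among themselves and 0.14 with ATP5F1A and ATP5F1B. The small subunits of complex III had a lower median among themselves, 0.23, than with the membrane accessory genes of ATP synthase, 0.45. All these medians include DCLI calf 1, the lowest of its group for 34 of the 40 members. A calf that is low in most members can raise their correlations together. The medians were not computed without it, so its part in them is not known.

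Of 12 pairs tested by 100000 permutations, 7 had an adjusted p under 0.05 by Pearson's r, and 5 of these also by Spearman's rho. UQCRC1 and CYC1 had r = 0.88 (adjusted permutation p 0.00042) and rho = 0.80 (0.00486), and r was 0.71 without control calf 7 and DCLI calf 1, the calves farthest out. ATP5F1A and ATP5F1B had r = 0.82 (adjusted permutation p 0.00042) and rho = 0.83 (0.00432), with r = 0.75 without the farthest 2 calves. UQCRC1 also went with ATP5F1B of the other complex (r = 0.72, adjusted permutation p 0.0121, rho = 0.71, adjusted p 0.0164, r = 0.58 without the farthest 2). Of the pairs of small subunits, UQCRQ went with UQCR10 (r = 0.80, adjusted permutation p 0.00252, rho = 0.73, adjusted p 0.0157, r = 0.65 without the farthest 2) and COX7C went with ATP5ME (r = 0.74, adjusted permutation p 0.00816, rho = 0.69, adjusted p 0.0188, r = 0.65 without the farthest 2). UQCRC1 and UQCRC2 had r = 0.69 (adjusted permutation p 0.0154), but rho = 0.54 missed the threshold (adjusted permutation p 0.0862). Without control calf 7 and DCLI calf 1, r was 0.42. The 2 calves left out of each pair were those farthest from the median of its first gene. Leaving them out narrows the range, which by itself tends to lower r, so it cannot show that a relation rests on them.

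ATP5F1B and ATP5ME, catalytic head and membrane accessory subunit of one enzyme, went opposite ways across calves, with r = -0.63 (adjusted permutation p 0.0177). The rank correlation missed the threshold (rho = -0.52, adjusted permutation p 0.0874), and r was -0.38 without control calves 5 and 7, the farthest 2 in ATP5F1B. The other 5 pairs missed the threshold by both measures. ATP5ME and ATP5MF had r = 0.56 and rho = 0.58 (adjusted permutation p 0.0573 and 0.0672), COX4I1 and COX5A r = 0.46 and rho = 0.45 (0.126 and 0.149), and UQCRC1 and UQCRQ of the same complex r = 0.08 and rho = -0.03 (adjusted permutation p 0.800 and 0.915). COX7C with COX6C had r = 0.11 and rho = 0.05 (0.787 and 0.915), and ATP5F1B with ATP5IF1 r = -0.20 and rho = -0.05 (0.614 and 0.915). Without the farthest 2 calves, r of these 5 pairs was, in the order given, 0.70, 0.29, -0.01, 0.01 and 0.30.

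**Figure D5:**
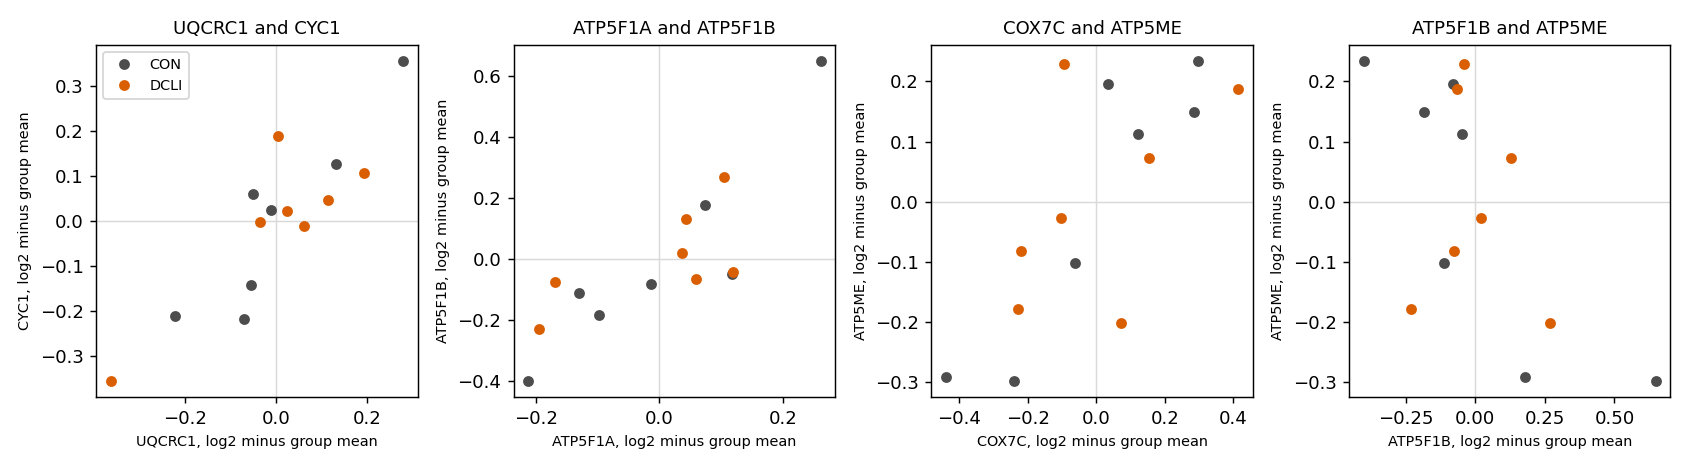
Log2(TPM + 1) minus the group mean in each calf for 4 pairs of members, CON in grey and DCLI in orange. UQCRC1 with CYC1 (r = 0.88), ATP5F1A with ATP5F1B (r = 0.82) and COX7C with ATP5ME (r = 0.74) slope upwards, and ATP5F1B with ATP5ME (r = -0.63) slopes downwards with 2 control calves far to the right and left.

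Of the members, 28 had 1 transcript in the table and the others up to 6. ATP5MC2 and ATP5PF were split between transcripts, and in the other genes compared 1 transcript supplied from 89.1 to 99.9% of the TPM in CON. Of ATP5MC2, the leading transcript NM_176613 supplied 59.6% in CON (SD 4.40) and 54.0% in DCLI (SD 3.77), with an exact permutation p of 0.0256 and 0.179 after adjustment over the 14 genes compared. Of ATP5F1A, XM_024984182 supplied 91.7% (SD 2.54) and 94.9% (SD 0.995), with an exact permutation p of 0.00699 and 0.0979 after adjustment. Neither passed the threshold. Reads shared between transcripts of 1 gene are divided by estimation, so these shares are less certain than the gene sums.

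Genes that build or serve these complexes were set beside them. Of 9 assembly factors of complex III, 6 stood higher and 3 lower (median log2 fold change 0.05). UQCC1, which helps make cytochrome b, had 11.4 TPM in CON and 14.5 TPM in DCLI (0.33 ± 0.11). It was the 1 member of that list with an unadjusted limma p under 0.05 (11.1%, near the 8.89% of all genes tested). MNF1 (UQCC2), the most abundant, had 111 TPM in both groups. Of 30 genes for complex IV assembly 17 stood higher and 13 lower (median 0.02), 6 and 1 of them with an unadjusted p under 0.05, where 5.7% and 3.19% of all genes tested had one. The lower one was COA1, an assembly factor, with 48.6 and 42.2 TPM (-0.20 ± 0.09), and all 7 DCLI calves lay below the control median. OXA1L, which inserts mitochondrially made proteins into the inner membrane, had 43.2 and 54.6 TPM (0.35 ± 0.12), TACO1, a translational activator of a catalytic subunit, 1.56 and 2.28 TPM (0.37 ± 0.13), HIGD2A, an assembly and supercomplex factor, 52.6 and 68.1 TPM (0.41 ± 0.15), and LRPPRC, which stabilises mitochondrial mRNAs, 11.8 and 14.5 TPM (0.29 ± 0.11). The copper chaperone COX17, the most abundant of that list, had 306 and 272 TPM (-0.18 ± 0.11). Of 6 ATP synthase assembly genes 2 stood higher and 4 lower, none with an unadjusted p under 0.05, and ATPAF1, a chaperone of the beta subunit and the most abundant of them, had 43.7 and 45.0 TPM.

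Partners, regulators and general mitochondrial genes were described in the same way. Of 9 tested partner genes 8 stood higher (median 0.08). SLC25A3, the carrier that brings phosphate to ATP synthase, was the 1 with an unadjusted limma p under 0.05 (11.1%, near the 8.89% of all genes tested). It averaged 136 ± 17.4 and 160.3 ± 11.7 TPM (SD) in CON and DCLI, a log2 fold change of 0.25 ± 0.09. Among 14 tested regulators of mitochondrial gene expression 9 stood higher and 5 lower (median 0.12). PPARGC1A, a coactivator of respiratory genes, had 4.53 and 6.29 TPM (0.45 ± 0.20), its partner ESRRA 25.7 and 33.6 TPM (0.39 ± 0.17), and POLG2, an accessory subunit of the mitochondrial DNA polymerase, 4.38 and 3.30 TPM (-0.35 ± 0.14). These 3 had an unadjusted limma p under 0.05 (21.4% of the list, against 8.89% of all genes tested). A further 12 genes of mitochondrial import, chaperones, membrane organisation and the citric acid cycle were listed under mitochondrial mass. Their mRNA levels do not measure that mass, which was not measured here. Of the 12 genes, 11 stood higher in DCLI (median 0.19) and 6 had an unadjusted limma p under 0.05 (8.89% of all genes tested did). The 1 that stood lower was CS, citrate synthase, an enzyme often used to gauge mitochondrial content, with 10.97 TPM (SD 3.42) and 9.46 TPM (SD 1.99), a log2 fold change of -0.17 ± 0.16. It is named after its value was seen. The mitochondrial chaperone HSPA9 had 89.8 and 113 TPM (0.33 ± 0.10), the prohibitin PHB 131 and 155 TPM (0.24 ± 0.09), the import pore TOMM40 16.8 and 19.7 TPM (0.22 ± 0.10), and the chaperonin HSPD1, the most abundant of the list, 234 and 309 TPM (0.43 ± 0.17). In none of these lists did a gene pass the adjusted threshold of limma.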

How the data were processed

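Liver RNA of 14 calves (CON and DCLI, n = 7 each) was sequenced after poly(A) selection on a DNBSEQ instrument, per the labels' protocols. Reads were filtered with SOAPnuke 1.5.6, which dropped those with over 5% unknown bases or over 20% of bases under quality 15, per the labels' protocols. RSEM 1.3.1 and DESeq2 1.4.5 are named in the submitters' processing notes. Aligner and genome build were not given in the sources used here. In the deposited table, the authors gave TPM for 49721 RefSeq transcripts, per the file headers, with column totals between 999997.1 and 1000000.3.

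TPM was summed per gene ID. A gene was tested, as log2(TPM + 1), where 7 or more libraries reached 1 TPM; the added 1 understates differences of low genes. The group test was limma 3.58.1 (R 4.3.3; two-sided, trended eBayes, no covariate, Benjamini-Hochberg over 11905 genes, threshold 0.05). Single genes and transcript shares were also compared by a two-sided exact permutation test over all 3432 assignments. Pairs of members were tested over 100000 resamples (two-sided). The limma and pair steps were tested on simulated data. Members in full are those with an unadjusted p under 0.05 and the most abundant of each complex. Of other lists at most 4 such genes and the most abundant are named. Further members, COA1, CS and ratios were named after their values were seen. Fold change was not set against protein length, which was not used here. The members and lists were chosen with earlier results of these data known. Of 127 list entries 125 matched, some through RefSeq symbols of assembly ARS-UCD2.0. Figures were drawn with matplotlib 3.10.9.

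Alternatives were other pseudocounts, filters, scalings, variance models and library weights, haptoglobin as a covariate, the replicate number as a block, single transcripts, and each calf left out. Leaving out control calf 2 with DCLI calf 6 was chosen after seeing the data.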

Additional observations from a re-analysis of the deposited data

Results flagged for a closer look

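Among the 86 groups of 7 calves (43 members in each of the groups), 7 had a calf set apart from the rest by a gap above Dixon's 95% critical value on the log2(TPM + 1) scale. Chance flags about 1 in 20 such groups. In DCLI, calf 1 was the one apart for CYC1 (73.4 TPM), UQCRC1 (103 TPM) and ATP5MG (639 TPM), each time as the lowest. DCLI calf 6 was lowest for ATP5MC2, at 224 TPM. In CON, calf 5 was lowest for UQCRC2 (75.1 TPM), calf 2 highest for UQCRH (179 TPM), and calf 1 was the only control calf with COX6B2 above 0 (0.69 TPM). Without DCLI calf 1 the log2 fold changes of CYC1 and UQCRC1 were 0.50 and 0.35, against 0.44 and 0.29 with it. Without control calf 5 that of UQCRC2 was 0.25, against 0.29.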

How the results depend on the processing

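Whether the replicate numbers of the titles pair the calves cannot be told from these values. Correlations of same-numbered calves' deviations ran from -0.18 to 0.45. Of the control calves, only calves 2 and 3 were most like the DCLI calf of their own number. With the replicate block, 1 gene passed the adjusted threshold, and 0 members did, with 5 members at an unadjusted p under 0.05. With library weights, which gave DCLI calf 7 a weight of 5.93 and control calf 2 one of 0.34, 1388 genes passed the adjusted threshold, 8 members among them, and 3516 genes had an unadjusted p under 0.05 (2855 higher), 15 members among them, all 15 higher. The cause was not tested. ATP5F1A, ATP5F1B, COX7A2L, CYC1, UQCRC1 and UQCRC2 were among the 8. With 1 calf left out, the genes past the adjusted threshold numbered from 0 to 12 (12 without control calf 7), those past the unadjusted one from 760.0 to 1598, members past the adjusted one 0, and members past the unadjusted one from 5 to 12. The last count was 12 without DCLI calf 1. Between 470.0 and 967 of the genes past the unadjusted threshold were higher.

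Members past the unadjusted threshold numbered 8 by the exact permutation test, 9 with single transcripts (of 62 tested), 9 with no filter and 8 without control calf 2 and DCLI calf 6. Over all alternatives, members higher in DCLI numbered from 25 to 32. Their median log2 fold change ran from 0.06 (quantile normalization) to 0.13 (without DCLI calf 1). The median over all genes moved too, from -0.03 (without DCLI calf 2) to 0.08 (library weights). With library weights the members had 0.13 against 0.08 over all genes, and without control calf 1 0.08 against 0.03, so the members then stood closer to all genes. None of the 10 members given in full changed direction in the 26 alternatives that refit gene sums. Among their single transcripts, minor ones of ATP5F1A (NM_174684, -0.33) and UQCRC1 (XM_024982407, -0.70) had the opposite sign to the gene. The log2 fold change of ATP5ME was -0.04 with quantile normalization, and that of COX7C -0.01 with library weights. With haptoglobin as a covariate the count was 7. Depth is unknown, so no counting error can be given for COX4I2, COX6B2, COX7B2, COX8B or any other member.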
